A study of Arachis hypogaea with 15 samples.

Results

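Terminal and lateral leaflets of wild-type peanut (Arachis hypogaea) were compared by RNA sequencing. Peanut is a legume crop whose tetraploid genome joins 2 ancestral ones, called A and B. The comparison used 6 of the 15 libraries of the series, 3 of terminal leaflets and 3 of lateral leaflets, chosen by the tissue and genotype that the labels give. Of the 59878 genes in the deposited table, 39031 reached 1 FPKM (fragments per kilobase of transcript, scaled to the mapped fragments of the library) in at least 3 libraries and were tested. The series examines compound leaf development and also holds wild-type shoot apices, wild-type petioles and apices of a pentafoliate mutant, which entered the estimate of the spread. Both leaflet groups were wild type and 40 days old, and grew in soil in a growth chamber at 22 °C and 70% relative humidity with 16 h of light and 8 h of dark. No transgene, agent or treatment is named for them. The labels do not give the hour of harvest, the developmental stage of the leaf, or whether leaflets of the 2 groups came from the same leaves or plants. The labels call the groups terminal and lateral leaflet, while the titles abbreviate them as DL and PL and the deposited columns as TL and LL. A peanut leaf usually bears its leaflets in 2 pairs with no single leaflet at the tip, and the labels do not say whether terminal and lateral stand for the upper and the lower pair, so each terminal minus lateral value is defined only by these labels. Leaflet position and harvest hour cannot be told apart wherever a gene follows the time of day.

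A peanut leaf is a pinnate compound leaf, in which leaflets arise in pairs on a common stalk. Leaflets expand as cell division gives way to cell enlargement, and during this time the epidermis covers itself with a cuticle of cutin and wax while the mesophyll builds its photosynthetic apparatus. The plant circadian clock, worked out mainly in Arabidopsis, links morning genes of the LHY and REVEILLE family with day and evening genes that repress them, and sets the daily rhythm of many leaf genes, those of photosynthesis, starch and wax among them.

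The libraries fitted their leaf labels. The summed level of Rubisco and Calvin cycle genes was 13243 to 14408 FPKM in terminal leaflets, 10925 to 11119 FPKM in lateral leaflets and 1365 to 1389 FPKM in the apex. Class I KNOX genes, which mark the shoot meristem, summed to 1.13 to 1.34 FPKM in terminal leaflets, 0.880 to 1.42 FPKM in lateral leaflets and 235 to 248 FPKM in the apex. Phloem markers summed to 171 to 172 FPKM in terminal and 165 to 168 FPKM in lateral leaflets, root and nodule markers to 38.8 to 40.2 and 36.3 to 40.4 FPKM, and seed markers to 11.1 to 12.8 and 12.2 to 13.3 FPKM. Pearson's r of log2(FPKM + 1) over genes was 0.989 to 0.990 between libraries of one leaflet group and 0.980 to 0.982 between the groups. The step size of low FPKM values gave an estimated 18900000 to 19300000 fragments per leaflet library, but whole reads could not be recovered.

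In terminal leaflets, 2197 genes were higher (5.63% of the tested genes) and 2909 were lower (7.45%), together 13.1%, by limma with Benjamini-Hochberg adjusted p under 0.05. The counts of each gene list below are to be read beside these shares. The excess of lower genes was not seen under quantile normalization, which gave 2283 higher and 2298 lower. Most differences were small. The median size was 0.350 on the log2 scale for the higher genes and 0.293 for the lower genes. All fold changes are on the log2(FPKM + 1) scale, terminal minus lateral, which understates the change of low genes. The large differences ran mostly one way. At least 2-fold differences numbered 198 higher (0.507%) and 48 lower (0.123%), and of the differences of at least 2 on the log2 scale, 42 were higher and 4 lower. The counts of 2-fold differences were 363 higher and 144 lower with a pseudocount of 0.1, and the lower ones were 74 with a pseudocount of 0.5 and 28 under a filter of 5 FPKM. In all 198 of the 2-fold higher genes and in 47 of the 48 2-fold lower genes, the 3 terminal libraries lay entirely on one side of the 3 lateral ones. Over all tested genes the libraries did not overlap for 11.4% with the terminal leaflets higher and for 19.1% with them lower, and the median difference was -0.03. Among called genes the libraries overlapped in 32 of the 2197 higher and 30 of the 2909 lower, so separate libraries add little to a call. This holds wherever the text below says that the groups of a called gene did not overlap. The genes named for the largest differences were required to have separate libraries. Transcription factors were encoded by 19 of the 198 genes at least 2-fold higher and by 1 of the 48 at least 2-fold lower. Among all 39031 tested genes, 2043 encode them. The sets differ in size, and their shares were not tested against each other. The authors' deposited table gave 5493 genes higher and 8523 lower in terminal leaflets at q under 0.05. Of the 5106 genes called here, 5050 were among those of the authors' deposited table, 5049 of them in the same direction. Gene names are the best protein matches that the deposited table gives. Of the 147 genes described, 60 follow from a rule on size, p or level, and the others were chosen after their values were seen, mostly as homeologous or family partners. The rule named 120 genes. The 60 of them that are not described were named as the member of a list with the smallest p or the highest level, and 23 were higher, 16 lower and 21 not called.

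**Figure D1:**
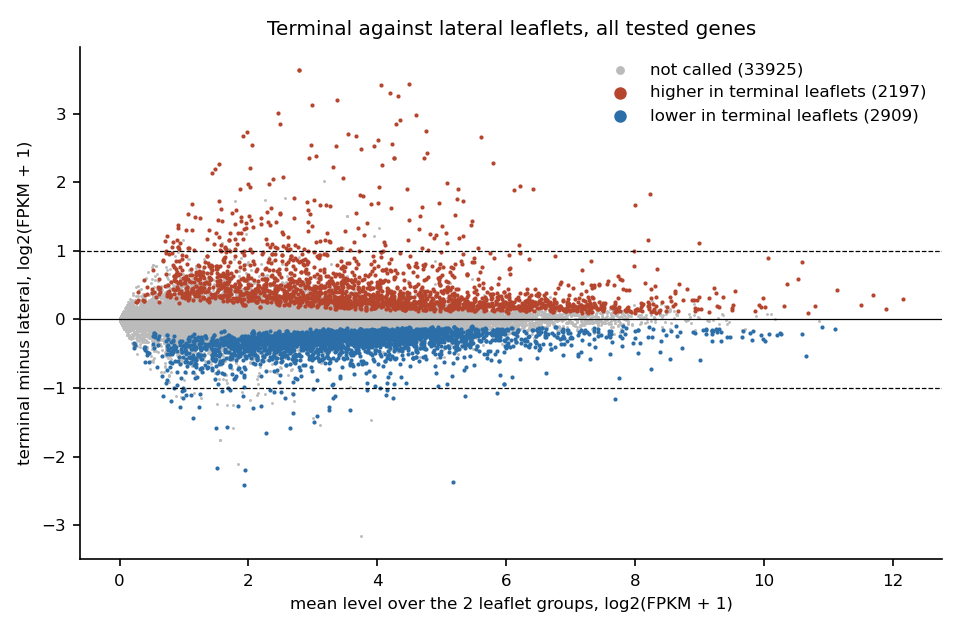
Each point is 1 of 39031 tested genes, placed by its mean level over both leaflet groups on the x axis, log2(FPKM + 1), and by terminal minus lateral on the y axis on the same scale. Red points are the 2197 genes called higher and blue points the 2909 called lower in terminal leaflets; dashed lines mark 2-fold, beyond which the called genes are mainly red.

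The morning part of the circadian clock stood at clearly different levels in the 2 leaflet groups. Of 22 tested LHY and REVEILLE genes, MYB-type transcription factors, 11 were higher and 2 lower in terminal leaflets, 8 of the former at least 2-fold, with a median of 0.62. Among genes at 5 FPKM or more the count higher was 7. LHY represses evening genes around dawn in Arabidopsis. Of its 4 well-expressed peanut genes, the one on chromosome 12 (arahy.J7VJ5I, chromosome 12, 6913004 to 6920027) had 30.9, 29.4 and 28.4 FPKM in the terminal libraries and 1.76, 2.01 and 1.8 FPKM in the lateral libraries (log2 difference 3.42 ± 0.06 SE, adjusted p = 2.5e-13). Its partner on chromosome 2 (arahy.0U0SSW) had 31.7, 32.1 and 33 FPKM in the terminal libraries and 2.15, 2.27 and 2.66 FPKM in the lateral libraries (log2 difference 3.31 ± 0.07 SE, adjusted p = 2.9e-13). The groups were far apart in both genes, and the spread within each group was small beside the gap. The other pair also differed, from a higher lateral level. LHY-like on chromosome 6 (arahy.P5534Y) had 45.1, 44 and 45.7 FPKM in the terminal libraries and 8.08, 8.25 and 6.42 FPKM in the lateral libraries (log2 difference 2.43 ± 0.08 SE, adjusted p = 6.3e-11). Its partner LHY on chromosome 16 (arahy.GF54Z4) averaged 43.2 ± 1.16 against 7.69 ± 0.650 FPKM (mean ± SD, n = 3; log2 difference 2.35 ± 0.07 SE, adjusted p = 2.2e-11). The remaining leaflet-expressed LHY entry (arahy.7ZN1JI, chromosome 16) stood at 2.39 and 1.68 FPKM, with a log2 difference of 0.34 (adjusted p = 0.035) that did not pass without terminal library 1, terminal library 2, lateral library 2 or lateral library 3, or with the 6 leaflet libraries alone.

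The apex and petiole means lay between the leaflet means for the 4 abundant LHY genes. For LHY on chromosome 16 (arahy.GF54Z4), the apex libraries at 42.2, 41.7 and 40.97 FPKM reached into the range of the terminal ones, which were at 42.1, 44.4 and 43.3 FPKM. LHY on chromosome 12 averaged 14.7 FPKM in the apex and 8.43 FPKM in the petiole, and LHY-like on chromosome 2 averaged 19.8 and 9.07 FPKM. Summed over all LHY and REVEILLE genes of the table, levels were 256 to 262 FPKM in terminal leaflets, 195 to 199.8 in the apex, 127 to 131 in the petiole and 109 to 109.7 in lateral leaflets. The lateral leaflets were the lowest of the 4 wild-type groups, and no ranges overlapped.

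LNK3, a coactivator that works with REVEILLE proteins in Arabidopsis, differed by a similar amount. LNK3 on chromosome 10 (arahy.5HCQ47) had 17.9, 19.3 and 20.6 FPKM in the terminal libraries and 1.86, 2.3 and 2.19 FPKM in the lateral libraries (log2 difference 2.70 ± 0.08 SE, adjusted p = 4.6e-11). Its copy on chromosome 20 (arahy.E0LNSJ) averaged 16.4 ± 0.340 against 2.03 ± 0.372 FPKM (log2 difference 2.53 ± 0.10 SE, adjusted p = 3.4e-10). Neither copy's leaflet groups overlapped, and the apex and petiole means of both, from 2.85 to 3.56 FPKM, lay between the leaflet means. LNK2, a relative, differed less, by 0.26 on the log2 scale on chromosome 20 (arahy.19HB3K, adjusted p = 5.7e-04) and by 0.34 on chromosome 10 (arahy.XZ22FX, adjusted p = 2.2e-04). REVEILLE 8, which activates evening genes in Arabidopsis, was higher in terminal leaflets on chromosome 12 (arahy.IS4JDL), with 7.53, 6.45 and 7.5 FPKM against 2.63, 2.57 and 2.14 FPKM (log2 difference 1.24 ± 0.09 SE, adjusted p = 2.1e-07). REVEILLE 7 on chromosome 15 (arahy.9UXU7A) had 7.83, 6.32 and 7.89 FPKM against 2.09, 1.82 and 1.64 FPKM (log2 difference 1.55 ± 0.09 SE, adjusted p = 4.2e-08). REVEILLE 6 ran the other way. The gene on chromosome 19 (arahy.J2PKFE) had 10.1, 8.41 and 10.4 FPKM against 14.5, 15.1 and 15.8 FPKM (log2 difference -0.61 ± 0.08 SE, adjusted p = 1.1e-04), and the one on chromosome 9 (arahy.PL301B) differed by -0.43 (adjusted p = 0.0015). In each of these genes the terminal and lateral libraries formed separate ranges.

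Day and evening genes differed in the opposite direction and by less. The pseudo-response regulators (APRR), which repress the morning genes in turn, gave 0 higher (limma; 1 at an unadjusted p under 0.05) and 5 lower among 10 tested, with a median of -0.17. GIGANTEA, ELF3 and ELF4 genes, which act in the evening, gave 0 higher (also 0 unadjusted) and 6 lower among 12, with a median of -0.24. APRR1 (also known as TOC1) on chromosome 11 (arahy.D90B1M) had 6.39, 6.04 and 5.89 FPKM against 10.4, 9.74 and 10.2 FPKM (log2 difference -0.64 ± 0.05 SE, adjusted p = 1.1e-06). Its copy on chromosome 1 (arahy.2F1UPX) differed by -0.48 (adjusted p = 1.8e-05). The groups did not overlap in either copy. GIGANTEA-like on chromosome 15 (arahy.SZWP5S) had 5.77, 5.82 and 5.69 FPKM against 9.25, 8.85 and 8.6 FPKM (log2 difference -0.55 ± 0.04 SE, adjusted p = 8.0e-07). The more abundant GIGANTEA-like gene on chromosome 19 (arahy.5NL3D9) averaged 28.1 ± 1.26 against 35.1 ± 0.437 FPKM (log2 difference -0.31 ± 0.05 SE, adjusted p = 3.4e-04). APRR5 on chromosome 12 (arahy.V64N20), the most abundant APRR gene, stood at 44 and 47.6 FPKM and did not pass (adjusted p = 0.074).

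Genes of the light and clock output list followed no single direction. Of 100 tested, 28 were higher and 12 lower, the latter 6 without lateral library 1. B-box zinc finger genes, which encode light-signalling factors, were among the higher ones. CONSTANS-LIKE 2-like on chromosome 4 (arahy.S3IANQ) had 9.0, 7.42 and 8.68 FPKM against 1.24, 1.01 and 1.4 FPKM (log2 difference 2.08 ± 0.09 SE, adjusted p = 1.6e-09). On chromosome 14 its copy differed by 1.98 (adjusted p = 2.2e-08). B-box zinc finger protein 18 on chromosome 15 (arahy.V574CD) averaged 13.6 ± 1.69 against 3.62 ± 0.550 FPKM (log2 difference 1.66 ± 0.11 SE, adjusted p = 7.1e-08). COP1, a ubiquitin ligase that represses photomorphogenesis in the dark, was higher on chromosome 7 (arahy.NA6SJF) at 5.47 ± 0.260 against 2.93 ± 0.456 FPKM (log2 difference 0.73 ± 0.09 SE, adjusted p = 8.0e-05). A FLOWERING LOCUS T-like gene on chromosome 6 (arahy.M2THPA), related to the mobile flowering signal of Arabidopsis, had 8.21, 8.0 and 6.81 FPKM against 3.42, 4.45 and 3.41 FPKM (log2 difference 0.87 ± 0.09 SE, adjusted p = 1.6e-05). All 3 terminal libraries exceeded all 3 lateral ones in every gene of this paragraph that is named. The clock levels bear on each group of genes that follows a daily rhythm, and their part in the results below was not tested.

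**Figure D2:**
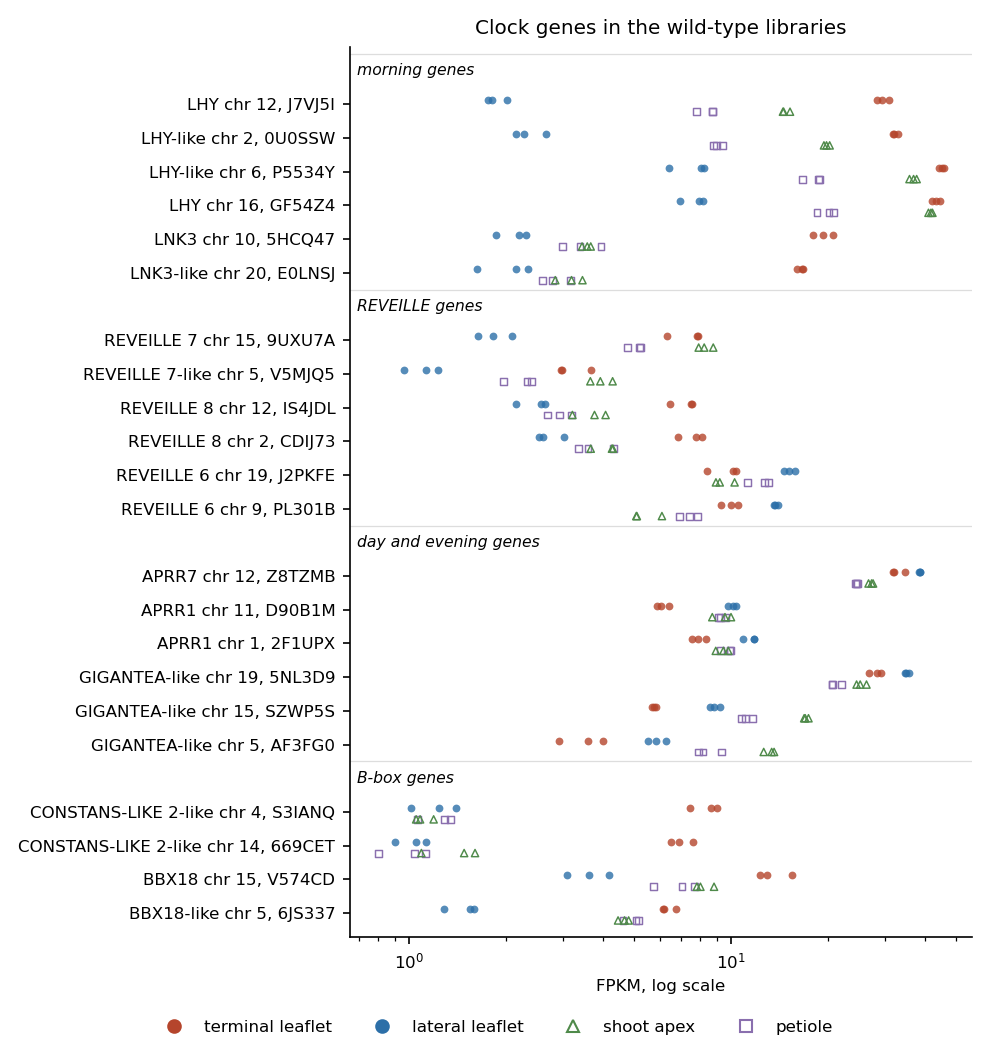
FPKM on a log x axis for 22 clock and B-box genes, 1 gene per row, with filled red points for the 3 terminal and filled blue points for the 3 lateral leaflet libraries, and open triangles and squares for the apex and petiole libraries. LHY, LNK3 and B-box genes lie to the right in terminal leaflets, whereas REVEILLE 6, APRR and GIGANTEA-like genes lie to the right in lateral leaflets.

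Wax synthesis held the largest number of 2-fold differences of the 52 gene lists examined, though not the largest share. Of 89 tested wax genes, 29 were higher and 12 lower in terminal leaflets. At least 2-fold differences were found in 15 of the higher ones, while the median was 0.01. The LHY and REVEILLE list had 8 among its 22 tested genes, and 0.507% of all tested genes were at least 2-fold higher. Summed levels were 1480 to 1500 FPKM in terminal and 991 to 1011 FPKM in lateral leaflets. These are bulk leaflets, in which more epidermal cells and more wax RNA per epidermal cell cannot be told apart. Wax begins with the elongation of fatty acids by a complex of 4 activities, and the genes named for each of them were higher. They were chosen after their values were seen, and the other genes of each activity were not counted. For the first, the condensing enzyme, 3-ketoacyl-CoA synthase 1-like on chromosome 2 (arahy.AYAJ7Z) had 23.4, 24 and 23.5 FPKM in the terminal libraries and 6.53, 6.54 and 6.66 FPKM in the lateral libraries (log2 difference 1.70 ± 0.08 SE, adjusted p = 3.3e-09). The chromosome 12 copy (arahy.06CD8W) differed by 1.60 (adjusted p = 6.6e-08). The pair of 3-ketoacyl-CoA synthase 11 genes on chromosomes 9 (arahy.1FMC3R) and 19 (arahy.XI5WK7) differed by 1.25 (adjusted p = 2.0e-08) and 1.23 (adjusted p = 6.6e-08). The first reductase of the cycle, 3-oxoacyl-CoA reductase 1-like on chromosome 20 (arahy.KTR7HF), averaged 45.1 ± 2.35 against 17 ± 1.04 FPKM (log2 difference 1.36 ± 0.06 SE, adjusted p = 1.6e-09). The dehydratase PASTICCINO 2 on chromosome 15 (arahy.4PU0PP) averaged 50.5 ± 1.89 against 31.5 ± 1.14 FPKM (log2 difference 0.67 ± 0.04 SE, adjusted p = 7.9e-08). The final enoyl-CoA reductase on chromosome 17 (arahy.5S3M3D) averaged 57.8 ± 0.524 against 30.7 ± 1.21 FPKM (log2 difference 0.89 ± 0.05 SE, adjusted p = 1.8e-08). Among these genes the difference was largest at the condensing step and smallest at the dehydratase, and none had overlapping groups.

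CER2-like proteins carry elongation on to the longest chains in Arabidopsis, and the genes named here split by subtype. CER2-like on chromosome 8 (arahy.ZI6CNN) had 92.8, 91.1 and 90.5 FPKM in the terminal libraries and 17.7, 18.4 and 17.8 FPKM in the lateral libraries (log2 difference 2.29 ± 0.08 SE, adjusted p = 1.8e-10). CER2-like on chromosome 17 (arahy.SWLP8S) had 114, 109 and 104 FPKM against 29.2, 27.8 and 28.7 FPKM (log2 difference 1.89 ± 0.11 SE, adjusted p = 2.9e-08). The less abundant CER2-like genes on chromosomes 7 (arahy.KET370) and 17 (arahy.0N85F7) differed by 2.05 (adjusted p = 1.4e-07) and 1.78 (adjusted p = 2.6e-08). The CER26-like genes named, their relatives, were lower in terminal leaflets. The one on chromosome 3 (arahy.K5F7Q0) had 57.1, 59.1 and 60.8 FPKM against 89, 90.1 and 85.8 FPKM (log2 difference -0.57 ± 0.04 SE, adjusted p = 6.1e-08), and the one on chromosome 13 (arahy.1M0UFP) differed by -0.68 (adjusted p = 1.2e-05). The terminal and lateral ranges were separate in all 6 genes.

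The genes named from the alkane branch were higher and those from the alcohol branch lower in terminal leaflets. Apart from arahy.U78CR3, they were chosen after their values were seen. The other tested genes of each branch were not counted. CER3, which works in the formation of alkanes, had 59.4, 59.8 and 57.7 FPKM against 14.9, 15.5 and 14.6 FPKM on chromosome 13 (arahy.H1181I; log2 difference 1.91 ± 0.07 SE, adjusted p = 2.0e-10). Its copy on chromosome 3 (arahy.13YW1E) averaged 57.5 ± 2.01 against 16.3 ± 0.348 FPKM (log2 difference 1.76 ± 0.09 SE, adjusted p = 7.0e-09). MAH1-like cytochrome P450 genes, named for the Arabidopsis enzyme that hydroxylates alkanes, lie on chromosomes 13 and 3. The copy on chromosome 3 (arahy.D59GD5) had 34, 36.6 and 35.4 FPKM against 2.93, 2.81 and 2.67 FPKM (log2 difference 3.26 ± 0.07 SE, adjusted p = 2.9e-13), beside a log2 difference of 3.43 for the copy on chromosome 13 (arahy.U78CR3, adjusted p = 2.2e-13). MAH1-like transcripts were listed at or near 0 in the apex and petiole. Fatty acyl-CoA reductase 3, named for the Arabidopsis enzyme that makes primary alcohols, was lower on chromosome 13 (arahy.BQ53C9), with 8.24, 8.56 and 8.7 FPKM against 13.9, 13.9 and 14.1 FPKM (log2 difference -0.66 ± 0.05 SE, adjusted p = 9.3e-07). The chromosome 3 copy (arahy.QK4PF2) differed by -0.56 (adjusted p = 8.4e-06). WSD1, a wax ester synthase, was lower on chromosome 20 (arahy.EC1ZJS) at 18.8 ± 0.416 against 29.1 ± 0.678 FPKM (log2 difference -0.61 ± 0.08 SE, adjusted p = 1.1e-04). None of these genes had overlapping groups.

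Named genes for lipid oxidation, export and regulation were higher, like those of the alkane branch. Long-chain-alcohol oxidase FAO1 on chromosome 13 (arahy.5HI5D0) had 27.3, 26.9 and 26.3 FPKM against 3.3, 3.81 and 3.46 FPKM (log2 difference 2.62 ± 0.09 SE, adjusted p = 1.1e-10), and FAO1-like on chromosome 3 (arahy.T6398M) differed by 2.52 (adjusted p = 4.6e-11). ABCG11, a half-transporter that exports wax and cutin precursors in Arabidopsis, averaged 46.5 ± 1.25 against 18.8 ± 0.814 FPKM on chromosome 5 (arahy.YE3XLF; log2 difference 1.26 ± 0.05 SE, adjusted p = 5.2e-10) and 52.3 ± 0.905 against 22.4 ± 0.384 FPKM on chromosome 15 (arahy.3TPM0V, adjusted p = 7.3e-09). MYB94 activates wax genes in Arabidopsis under drought. Its match on chromosome 1 (arahy.47HK44) and the myb-related protein 306 gene on chromosome 11 (arahy.GBQU8N) differed by 2.91 (adjusted p = 2.2e-11) and 2.85 (adjusted p = 4.6e-11), and stood at 0 and 0.210 FPKM in the apex. The list of MYB wax and cuticle regulators, which holds only the first of these 2 genes, gave 1 higher of 7 tested (median 0.04). In the wider list of cutin and lipid transfer genes, 40 of 199 were higher and 14 lower, with a median of 0.00. EXL3, a secreted lipase of the GDSL family, had 42.7, 48.1 and 47.9 FPKM against 6.74, 5.52 and 5.9 FPKM on chromosome 17 (arahy.0I35HW; log2 difference 2.74 ± 0.09 SE, adjusted p = 8.0e-11), the largest difference of a named product in that list. CYP86A8-like, matching a fatty acid hydroxylase of cutin synthesis, was lower on chromosome 12 (arahy.QL4ZS9) at 1.2 ± 0.978 against 3.96 ± 0.968 FPKM (adjusted p = 0.0046), and did not pass with the 6 leaflet libraries alone.

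**Figure D3:**
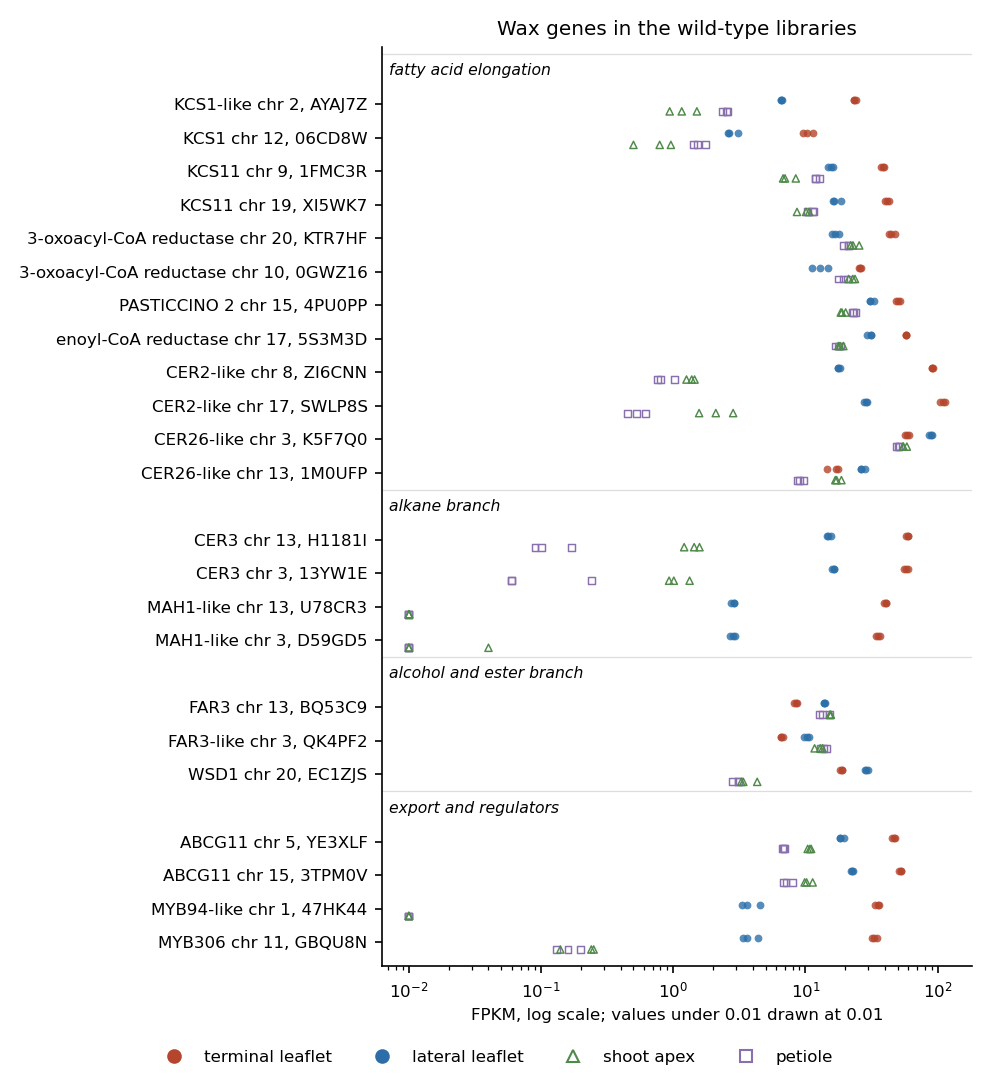
FPKM on a log x axis for 23 wax genes ordered by their step, 1 gene per row, with filled red points for the 3 terminal and filled blue points for the 3 lateral leaflet libraries, and open triangles and squares for the apex and petiole libraries. Elongation, CER3, MAH1-like, ABCG11 and MYB genes lie to the right in terminal leaflets; CER26-like, FAR3 and WSD1 genes lie to the right in lateral leaflets.

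Of the Rubisco and Calvin cycle genes that passed the test, all but 1 were higher in terminal leaflets. In the list chosen by product name, 19 of 35 were higher and 1 lower (median 0.21). The wider KEGG term for carbon fixation in photosynthetic organisms, as the deposited table annotates it, gave 44 higher (19.8%) and 21 lower (9.46%) of 222, with a median of 0.01. Light-harvesting and photosystem genes gave 31 higher and 4 lower (1 or 2 with most single libraries left out) of 98 (median 0.08). Chlorophyll and carotenoid synthesis genes gave 16 higher and 0 lower (limma; 2 at an unadjusted p under 0.05) of 69 (median 0.03). Rubisco activase, which restores blocked Rubisco to activity, differed by gene. The activase gene on chromosome 3 (arahy.59KA91) had 377, 397 and 397 FPKM in the terminal libraries and 123, 125 and 119 FPKM in the lateral libraries (log2 difference 1.67 ± 0.05 SE, adjusted p = 1.5e-11), close to the 1.82 of its partner on chromosome 13 (arahy.NME7KH, adjusted p = 4.2e-13). A further activase gene on chromosome 7 (arahy.S3V5ZL) averaged 136 ± 2.0 against 123 ± 1.17 FPKM and differed by only 0.14 (adjusted p = 0.02), a call that was lost under quantile normalization and without terminal library 2 or 3 or lateral library 2 or 3. Over all 16 tested activase genes 5 were higher. The 4 small subunit genes of Rubisco were all higher, by 0.16 to 0.51. The most abundant, on chromosome 10 (arahy.97RMNS), had the smallest difference, with 3803, 4077 and 4179 FPKM against 3579, 3633 and 3591 FPKM (log2 difference 0.16 ± 0.04 SE, adjusted p = 0.0089), a call lost under quantile normalization, where its difference was 0. The small subunit gene on chromosome 20 (arahy.I56F9F) had 2412, 2678 and 2632 FPKM against 1905, 1946 and 1893 FPKM (log2 difference 0.43 ± 0.05 SE, adjusted p = 3.4e-05), and on chromosome 10 (arahy.FHUH7B) 1421, 1573 and 1655 FPKM against 1100, 1068 and 1081 FPKM (log2 difference 0.51 ± 0.05 SE, adjusted p = 5.9e-06). The groups were separate in all 6 genes.

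Some of the largest differences lay in genes for carbonic anhydrase, NADP-dependent malic enzyme, NADP-dependent glyceraldehyde-3-phosphate dehydrogenase and dicarboxylate transporters, families chosen after their values were seen. Counted whole, carbonic anhydrases gave 6 higher of 26 tested (median 0.03), malic enzymes 6 higher and 1 lower of 11 (median 0.13), the dehydrogenases 2 higher of 5 (median 0.05) and the transporters 3 higher of 8 (median 0.07). Chloroplast carbonic anhydrase, which interconverts carbon dioxide and bicarbonate, had 88, 83.4 and 79.3 FPKM in the terminal libraries and 12.8, 13.1 and 11.1 FPKM in the lateral libraries on chromosome 15 (arahy.QR6FW0; log2 difference 2.67 ± 0.09 SE, adjusted p = 9.5e-11). The chromosome 5 copy (arahy.W8IC6S) averaged 33.7 ± 1.02 against 8.3 ± 0.241 FPKM (log2 difference 1.90 ± 0.07 SE, adjusted p = 2.8e-10). NADP-dependent malic enzyme, which releases carbon dioxide from malate, had 29.9, 33.4 and 29.6 FPKM against 4.03, 4.54 and 4.77 FPKM on chromosome 8 (arahy.SM45K0; log2 difference 2.55 ± 0.08 SE, adjusted p = 4.6e-11) and differed by 1.81 on chromosome 17 (arahy.M7W292, adjusted p = 1.9e-09). The NADP-dependent glyceraldehyde-3-phosphate dehydrogenase genes on chromosomes 1 (arahy.U9DM18) and 11 (arahy.5CRU8P) differed by 1.53 (adjusted p = 4.1e-10) and 1.64 (adjusted p = 7.1e-10). Dicarboxylate transporter 1 of the chloroplast envelope averaged 18.4 ± 0.580 against 7.24 ± 0.374 FPKM on chromosome 18 (arahy.GHW2P2; log2 difference 1.24 ± 0.08 SE, adjusted p = 6.7e-08). None of these genes had overlapping groups. The ChlH subunit of magnesium chelatase, the entry to chlorophyll synthesis, had 56.4, 57.2 and 56.7 FPKM against 31.7, 32.2 and 30.4 FPKM on chromosome 2 (arahy.XR90DA; log2 difference 0.83 ± 0.03 SE, adjusted p = 5.0e-10) and differed by 0.76 on chromosome 12 (arahy.RSU8B2, adjusted p = 1.1e-09). CP26, an antenna protein of photosystem II, averaged 318 ± 15.7 against 184 ± 7.38 FPKM on chromosome 15 (arahy.8LQR2U; log2 difference 0.79 ± 0.04 SE, adjusted p = 6.3e-09).

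Photorespiration, which recovers the product of Rubisco's reaction with oxygen, was measured in 58 genes, of which 17 were higher and 5 lower, with a median of 0.05. Phosphoglycolate phosphatase 1B, its first enzyme, had 41.9, 40.8 and 41.1 FPKM against 20.1, 20.9 and 20.4 FPKM on chromosome 14 (arahy.VI5MD4; log2 difference 0.98 ± 0.05 SE, adjusted p = 1.0e-08) and averaged 32.2 ± 0.918 against 18.2 ± 1.17 FPKM on chromosome 4 (arahy.4JTK6F; adjusted p = 4.1e-05). Glutamate-glyoxylate aminotransferase 2, which makes glycine, differed by 1.01 on chromosome 15 (arahy.RKV2XY, adjusted p = 9.4e-06) and by 1.04 on chromosome 5 (arahy.MAU41V, adjusted p = 2.9e-05). Serine-glyoxylate aminotransferase had 44.7, 45.8 and 45.4 FPKM against 21.4, 20.3 and 19.2 FPKM on chromosome 7 (arahy.NTNX6Y; log2 difference 1.12 ± 0.10 SE, adjusted p = 1.8e-06). All were higher in every terminal than in every lateral library. The 2 aminotransferases' genes had lower levels in the apex, from 2.47 to 10.1 FPKM.

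Sulfur assimilation genes that passed the test were also mostly higher in terminal leaflets. Of 59 tested, 20 were higher and 3 lower, 6 of the former at least 2-fold, with a median of 0.11. ATP sulfurylase activates sulfate, and its genes differed by 0.80 on chromosome 4 (arahy.40G96H, adjusted p = 5.1e-05) and 0.78 on chromosome 9 (arahy.J4U887, adjusted p = 4.6e-06). The next enzyme, 5'-adenylylsulfate reductase 3, had 28.7, 30.1 and 30.02 FPKM against 12, 12.6 and 13.7 FPKM on chromosome 14 (arahy.L2Y6DG; log2 difference 1.15 ± 0.06 SE, adjusted p = 6.5e-09). Its genes on chromosomes 11 (arahy.5H5XYM), 1 (arahy.E3Q78B) and 4 (arahy.FJ1N0Z) differed by 1.03, 0.95 and 0.93, with adjusted p of 1.2e-05, 1.6e-07 and 4.7e-07. Libraries of the 2 groups did not overlap in any of them. SULFUR DEFICIENCY-INDUCED 1 (SDI1), a gene induced by sulfur shortage in Arabidopsis, showed the largest gap of the list. SDI1 on chromosome 4 (arahy.G5K9LY) had 8.77, 9.27 and 8.4 FPKM in the terminal libraries and 0.10, 0.34 and 0.23 FPKM in the lateral libraries (log2 difference 3.01 ± 0.14 SE, adjusted p = 1.8e-09). SDI1-like on chromosome 14 (arahy.ETEK52) had 5.86, 5.32 and 6.36 FPKM against 0, 0 and 0.08 FPKM (log2 difference 2.74 ± 0.17 SE, adjusted p = 4.3e-08). Every lateral library was under 1 FPKM in both genes, and 2 of the lateral values of the latter were listed at 0. A cysteine synthase gene on chromosome 3 (arahy.8NKF7K), the step that builds cysteine, was lower at 51.2 ± 0.833 against 71.5 ± 3.72 FPKM (log2 difference -0.47 ± 0.06 SE, adjusted p = 8.2e-05). Cystinosin homologs, matching a transporter that moves cystine out of lysosomes in animals, had 8.7, 9.36 and 8.67 FPKM against 0.37, 0.34 and 0.39 FPKM on chromosome 20 (arahy.96G9DX; log2 difference 2.86 ± 0.10 SE, adjusted p = 1.0e-10) and differed by 2.54 on chromosome 10 (arahy.ATC700, adjusted p = 3.6e-09).

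**Figure D4:**
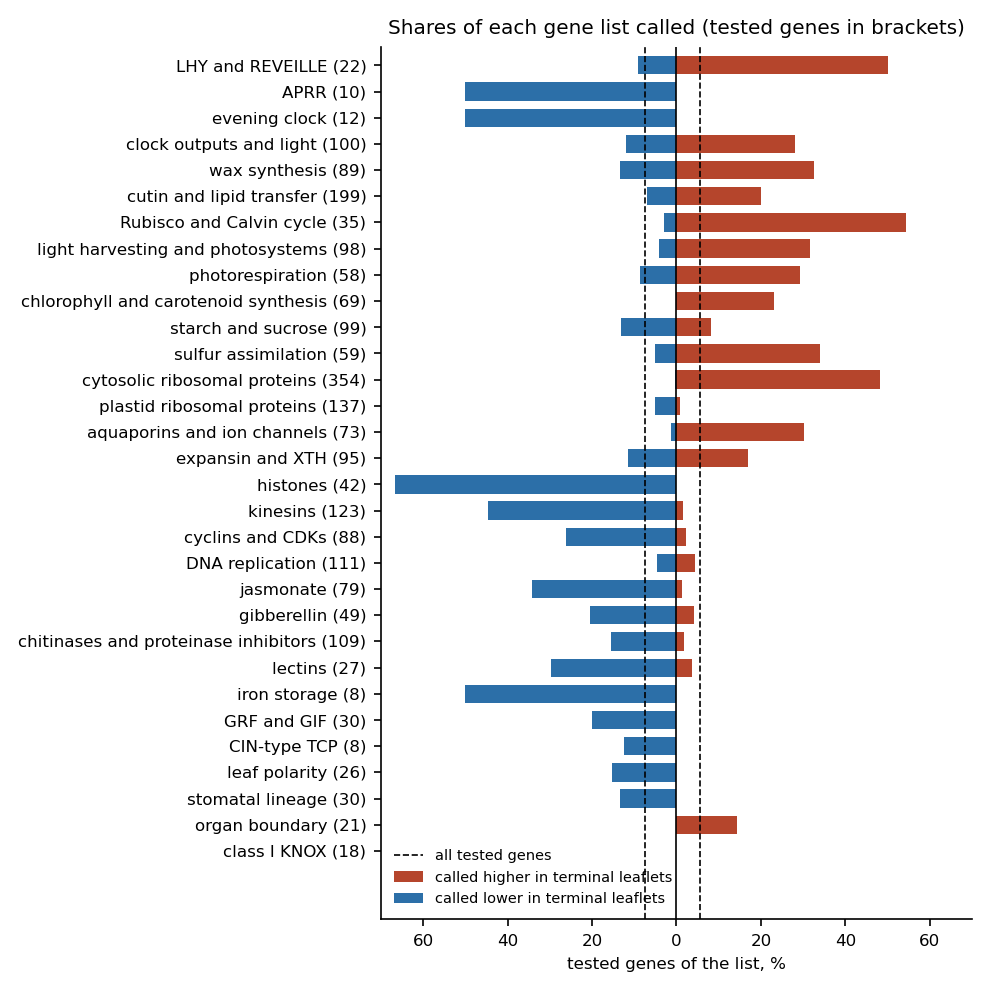
Bars give, for 31 gene lists with their number of tested genes in brackets, the percentage called higher (red, to the right) and lower (blue, to the left) in terminal leaflets. Dashed lines mark the 5.63% and 7.45% of all tested genes. Rubisco and Calvin cycle, cytosolic ribosomal, wax and sulfur lists exceed the line on the right. Histones, kinesins and jasmonate genes exceed the line on the left, and so does the wax list.

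Starch and sucrose genes showed no common direction, with 8 higher (8.08%) and 13 lower (13.1%) of 99 (median -0.06). Among all tested genes, 5.63% were higher and 7.45% lower. Granule-bound starch synthase 1, which makes amylose, had 5.18, 4.96 and 4.86 FPKM against 1.01, 1.24 and 1.37 FPKM on chromosome 12 (arahy.PH1SAB; log2 difference 1.45 ± 0.09 SE, adjusted p = 6.1e-08) and averaged 5.64 ± 0.459 against 1.54 ± 0.336 FPKM on chromosome 2 (arahy.VC882V; log2 difference 1.39 ± 0.09 SE, adjusted p = 7.9e-08). SWEET12, a sucrose efflux carrier in Arabidopsis, averaged 10.1 ± 0.0321 against 4.88 ± 0.260 FPKM on chromosome 18 (arahy.9TLR89; log2 difference 0.92 ± 0.08 SE, adjusted p = 2.6e-06). Sucrose transport proteins, which take sucrose up, differed the other way, by -0.40 on chromosome 19 (arahy.8T8XTL, adjusted p = 3.9e-04) and -0.37 on chromosome 9 (arahy.1RV5TE, adjusted p = 3.1e-04). The groups did not overlap in these 5 genes.

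Genes of the cytosolic ribosome were called slightly higher in terminal leaflets, with few exceptions among the called ones. Of 354 tested, 171 were higher and 1 lower, with a median of 0.15. The count higher was 114 under quantile normalization. The member with the smallest p, 40S ribosomal protein S2-4 on chromosome 13 (arahy.U59V20), had 31.9, 33.5 and 32 FPKM against 25, 26.5 and 24.7 FPKM (log2 difference 0.34 ± 0.04 SE, adjusted p = 1.8e-05). Only 3 members reached 2-fold, all of the 60S L7 family, among them L7-2 on chromosome 1 (arahy.RNAX97) at 5.24 ± 0.598 against 0.677 ± 0.718 FPKM (log2 difference 1.98 ± 0.22 SE, adjusted p = 3.4e-05). Plastid ribosomal proteins gave 1 higher and 7 lower of 137, with a median of -0.03, equal at 2 decimals to that of all genes.

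Histone, kinesin and cyclin genes that passed the test were mostly lower in terminal leaflets, by small amounts. By limma, histone genes gave 0 higher (also 0 at an unadjusted p under 0.05) and 28 lower of 42 (median -0.21), kinesins, the motors of the spindle and cytoplasm, 2 and 55 of 123 (median -0.20), and cyclins and cyclin-dependent kinases 2 and 23 of 88 (median -0.14). Linker histone H1 on chromosome 13 (arahy.1UPR0X) had 116, 119 and 123 FPKM against 167, 166 and 165 FPKM (log2 difference -0.48 ± 0.03 SE, adjusted p = 6.6e-08), and H1-like on chromosome 3 (arahy.I41NMG, adjusted p = 3.4e-06) averaged 112 ± 8.65 against 162 ± 3.04 FPKM. A mitotic cyclin, S13-7-like on chromosome 13 (arahy.A7Y8RN), had 35.6, 34.1 and 34 FPKM against 44.1, 44.4 and 46.3 FPKM (log2 difference -0.37 ± 0.04 SE, adjusted p = 1.3e-05). The 2 groups did not overlap in these genes. DNA replication genes gave 5 higher and 5 lower of 111, the latter 2 without lateral library 2 or terminal library 2 and 3 without lateral library 1. The replication clamp PCNA on chromosome 16 (arahy.U7GG8I), the most abundant of them, averaged 101 ± 3.17 against 96.1 ± 2.11 FPKM with overlapping libraries (adjusted p = 0.26). Cyclin-D1-1-like, of the type that acts on entry into the cycle, was higher on chromosomes 3 (arahy.KNXH3L) and 13 (arahy.FNV3YB), by 0.34 (adjusted p = 9.0e-04) and 0.48 (adjusted p = 0.0029). Summed histone levels were 18738 to 19634 FPKM in terminal and 21765 to 22429 FPKM in lateral leaflets, above the 11921 to 12152 FPKM of the apex.

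Of 39 tested aquaporin genes, a family counted after the values were seen, 20 were higher in terminal leaflets (median 0.19), and wall-loosening genes were mixed. The combined list of aquaporins and ion channels gave 22 higher and 1 lower of 73 (median 0.11), and aquaporin PIP2-7, a water channel of the plasma membrane, had 14.3, 14.2 and 13.6 FPKM against 7.49, 7.47 and 7.55 FPKM on chromosome 18 (arahy.W31NC6; log2 difference 0.82 ± 0.05 SE, adjusted p = 4.7e-08). Expansins and xyloglucan enzymes, which loosen walls, gave 16 higher and 11 lower of 95, the latter 6 without terminal library 3. Expansin-A10-like on chromosome 7 (arahy.1N8WRQ) had 22.7, 22.1 and 21 FPKM against 6.42, 6.18 and 5.72 FPKM (log2 difference 1.69 ± 0.08 SE, adjusted p = 2.2e-09). Expansin-A1 was lower on chromosomes 13 (arahy.C0ENLW) and 3 (arahy.TBDY3T), by -0.42 (adjusted p = 1.2e-04) and -0.34 (adjusted p = 1.8e-04). Protein E6, known from cotton fibres, had 141, 120.5 and 139.6 FPKM against 33.2, 34.3 and 36.9 FPKM on chromosome 20 (arahy.AUV6LD; log2 difference 1.91 ± 0.08 SE, adjusted p = 7.7e-10).

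Called genes for lectins, chitinases, proteinase inhibitors and ferritins were mostly lower in terminal leaflets. Lectins gave 1 higher and 8 lower of 27 (median -0.07). Lectin CPL-like on chromosome 9 had 11.4, 10.7 and 10.1 FPKM against 58.5, 60.9 and 59.5 FPKM (log2 difference -2.37 ± 0.11 SE, adjusted p = 2.6e-09), the largest difference among the genes that the naming rule took as lower, and averaged 0.460 FPKM in the petiole. Galactose-binding lectin-like on chromosome 9 (arahy.KTW86Y), a sugar-binding protein, had 121, 133 and 126 FPKM in the terminal libraries and 288, 286 and 282 FPKM in the lateral libraries (log2 difference -1.17 ± 0.04 SE, adjusted p = 5.3e-11), and averaged 1010 FPKM in the apex. Chitinases and proteinase inhibitors gave 2 higher and 17 lower of 109 (median -0.04). Hevamine-A, a chitinase, had 20.03, 19.5 and 19.9 FPKM against 40.4, 39.2 and 39.9 FPKM on chromosome 9 (arahy.SNDR2D; log2 difference -0.97 ± 0.04 SE, adjusted p = 1.8e-10) and averaged 4.51 ± 0.196 against 12.5 ± 1.29 FPKM on chromosome 19 (arahy.RKK33X; log2 difference -1.28 ± 0.05 SE, adjusted p = 6.7e-10), beside a difference of -1.27 for hevamine-A-like on chromosome 9 (arahy.4N1P2Y, adjusted p = 4.5e-05). Bowman-Birk inhibitor A-II, which blocks digestive proteinases, had 217, 235 and 231 FPKM against 386, 368 and 377 FPKM on chromosome 9 (arahy.6M4P9K; log2 difference -0.73 ± 0.05 SE, adjusted p = 1.0e-07). Bowman-Birk inhibitor B-II averaged 3.19 ± 0.892 against 7.79 ± 0.812 FPKM on chromosome 19 (arahy.A9Z54Y; log2 difference -1.09 ± 0.11 SE, adjusted p = 1.4e-05). Lateral libraries exceeded terminal ones throughout. The galactose-binding lectin, both hevamine-A genes and both Bowman-Birk inhibitor genes had higher means still in the petiole. Ferritins, the iron stores of the chloroplast, gave by limma 0 higher (also 0 at an unadjusted p under 0.05) and 4 lower of 8 (median -0.35). Ferritin-2 had 9.71, 9.86 and 10.9 FPKM against 23.7, 22.5 and 22.9 FPKM on chromosome 12 (arahy.B2GHU0; log2 difference -1.11 ± 0.06 SE, adjusted p = 1.7e-08) and differed by -1.11 on chromosome 2 (arahy.MAQ2UP, adjusted p = 7.1e-07). Ferritin-3 averaged 34.1 ± 1.69 against 54.5 ± 1.63 FPKM on chromosome 10 (arahy.A6HILS; log2 difference -0.66 ± 0.04 SE, adjusted p = 6.6e-08). Ferritin-4 on chromosome 7 (arahy.L5QT4E) did not pass, at 10.6 and 12 FPKM (adjusted p = 0.15).

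Jasmonate genes gave 1 higher and 27 lower of 79 (median -0.13). The 13-lipoxygenase that starts jasmonate synthesis had 9.46, 8.84 and 9.2 FPKM against 14.8, 15.7 and 14.4 FPKM on chromosome 3 (arahy.Y6Q89P; log2 difference -0.65 ± 0.07 SE, adjusted p = 1.3e-05). TIFY 10b, a jasmonate-induced repressor, differed by -0.82 on chromosome 15 (arahy.DQCW8K, adjusted p = 1.1e-07), and TIFY 5A-like by -1.06 on chromosome 13 (arahy.EU8XRE, adjusted p = 0.0012), a call lost with a pseudocount of 0.1. Among genes of secondary and amino acid metabolism, salicylate carboxymethyltransferase, which makes methyl salicylate, had 3.08, 4.18 and 3.47 FPKM against 10.2, 11.9 and 11.3 FPKM on chromosome 11 (arahy.IE6GXI; log2 difference -1.41 ± 0.09 SE, adjusted p = 1.2e-07). Isoeugenol synthase 1-like on chromosome 8 (arahy.1IJW0J) had 3.8, 2.78 and 3.13 FPKM against 12.3, 11.1 and 9.57 FPKM (log2 difference -1.50 ± 0.10 SE, adjusted p = 7.6e-08). Tryptophan synthase beta chain 1, the last step to tryptophan, averaged 5.18 ± 0.357 against 12.7 ± 0.452 FPKM on chromosome 15 (arahy.A8YTMR; log2 difference -1.15 ± 0.10 SE, adjusted p = 1.2e-06) and 2.69 ± 0.0945 against 7.15 ± 0.499 FPKM on chromosome 5 (arahy.PA1DXY; log2 difference -1.14 ± 0.09 SE, adjusted p = 6.4e-07). Reticuline 7-O-methyltransferase genes, named for an enzyme of alkaloid synthesis in poppy, averaged 36.3 ± 0.854 against 77.2 ± 4.76 FPKM on chromosome 18 (arahy.X181HS; log2 difference -1.07 ± 0.04 SE, adjusted p = 1.0e-10) and 25 ± 2.25 against 55.2 ± 2.18 FPKM on chromosome 8 (arahy.MQB4F1; log2 difference -1.12 ± 0.05 SE, adjusted p = 1.5e-09). Serine decarboxylase 1, which makes ethanolamine, averaged 4.42 ± 0.663 against 12.6 ± 1.27 FPKM on chromosome 19 (arahy.E7PKRF; log2 difference -1.33 ± 0.11 SE, adjusted p = 1.5e-06). The probable ubiquitin ligase RHY1A gene on chromosome 3 (arahy.8W4I3Q) differed by -1.65 (adjusted p = 3.9e-05), and a FAR1-RELATED SEQUENCE 5-like gene on chromosome 9 by -1.06 (adjusted p = 0.0018). Lateral and terminal libraries were separate in all of these genes, which the naming rule required of the largest falls.

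Lists of other hormones were mixed, beside 5.63% higher and 7.45% lower among all tested genes. Abscisic acid and drought genes gave 4 higher (5.56%) and 12 lower (16.7%) of 72, the latter 7 without lateral library 2. Abscisic acid 8'-hydroxylase 3, which breaks the hormone down, had 0.29, 0.25 and 0.34 FPKM against 1.7, 1.8 and 1.86 FPKM on chromosome 1 (arahy.LXP1WJ; log2 difference -1.11 ± 0.11 SE, adjusted p = 8.5e-06). Gibberellin genes gave 2 higher (4.08%) and 10 lower (20.4%) of 49. The biosynthetic gibberellin 20 oxidase 2 on chromosome 15 (arahy.QV02Z8) was higher at 18.2 ± 1.17 against 12.4 ± 0.629 FPKM (adjusted p = 2.2e-04). Aux/IAA repressors and auxin response factors gave 10 higher (9.52%) and 7 lower (6.67%) of 105. The repressor IAA14 was higher on chromosome 9 (arahy.QUY0YV), with 28, 28.1 and 30.1 FPKM against 18.8, 17.9 and 17.7 FPKM (log2 difference 0.64 ± 0.04 SE, adjusted p = 5.3e-08), and on chromosome 19 (arahy.CB6084), with a difference of 0.62 (adjusted p = 1.0e-06).

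Regulators of leaf form differed by small amounts between the leaflet positions. Among all tested genes, 5.63% were called higher and 7.45% lower, and several of these lists are short. CIN-type TCP factors, which end growth at the leaf margin, gave by limma 0 higher (also 0 at an unadjusted p under 0.05) and 1 lower (3 unadjusted) of 8 (median -0.11). TCP2-like on chromosome 3 (arahy.JF9204), the most abundant, had 127, 127 and 134 FPKM against 139, 144 and 149 FPKM (adjusted p = 0.054), and TCP24-like on chromosome 13 (arahy.UL2QPJ) averaged 80.3 ± 1.46 against 94.8 ± 1.53 FPKM (adjusted p = 0.015), a call lost without lateral library 2. Under the filter of 5 FPKM and under each other scaling of the libraries the count lower was 3. Growth-regulating factors and their partners gave 0 higher (also 0 unadjusted) and 6 lower of 30 (median -0.12). Leaf polarity genes gave 0 higher (1 unadjusted) and 4 lower of 26, with 1 lower without lateral library 1 and 2 without lateral library 2 or 3 or terminal library 2. AS1, which represses KNOX genes, differed by -0.31 on chromosome 12 (arahy.Z9PFJZ, adjusted p = 2.9e-04), while YABBY 1 on chromosome 12 (arahy.GE3GK9) averaged 22.3 ± 1.06 against 20.8 ± 0.867 FPKM with overlapping libraries. Of 18 class I KNOX genes tested, limma called 0, and 0 had an unadjusted p under 0.05. The highest leaflet mean among them was 0.413 FPKM (arahy.V2YWYI). These genes passed the filter only through libraries of other tissues, so the absence of calls says little about them in leaflets.

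Stomatal lineage genes gave by limma 0 higher (also 0 at an unadjusted p under 0.05) and 4 lower (13.3%) of 30 (median -0.05). Among all tested genes, 5.63% were higher and 7.45% lower. EPIDERMAL PATTERNING FACTOR 1, a peptide that spaces stomata in Arabidopsis, had 4.78, 5.82 and 5.32 FPKM against 8.13, 8.62 and 7.98 FPKM on chromosome 18 (arahy.D6F48U; log2 difference -0.55 ± 0.10 SE, adjusted p = 0.0019). Its groups did not overlap, but the call was lost with a pseudocount of 0.1, where the log2 difference was -0.63 (adjusted p = 0.31). The apex libraries, which enter the shared spread, averaged 0.193 FPKM, and their part in the loss was not tested. MUTE-like, which commits cells to the guard cell fate in Arabidopsis, was lower on chromosome 14 (arahy.9C3IJ5, adjusted p = 0.015), a call lost with a pseudocount of 0.1 (adjusted p = 0.39) or 0.5 and without terminal library 1 or lateral library 1, and did not pass on chromosome 4 (arahy.K3IFFD, adjusted p = 0.059). The list's count lower was 1 without lateral library 1, and 2 without terminal library 3 or lateral library 3. In the organ boundary list, 3 of 21 genes were higher (14.3%) and 0 lower (limma, also 0 at an unadjusted p under 0.05). LIGHT-DEPENDENT SHORT HYPOCOTYLS 6 on chromosome 11 (arahy.R14XX7), of a family that marks organ boundaries, had 2.71, 3.15 and 3.14 FPKM against 1.19, 1.28 and 0.99 FPKM (log2 difference 0.89 ± 0.11 SE, adjusted p = 4.8e-05), beside a difference of 1.43 for its copy on chromosome 1 (arahy.1M0B45, adjusted p = 1.6e-05). Boundary genes summed to 13.2 to 14.7 FPKM in terminal and 7.9 to 8.88 FPKM in lateral leaflets, against 397 to 421 FPKM in the apex.

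Homeologous copies, the A and B genes of one ancestral gene, can share near-identical reads. Among 2855 products with exactly 1 tested gene on an A chromosome and 1 on the matching B chromosome, a match by name and chromosome that need not join true homeologs, 398 A copies (13.9%) and 406 B copies (14.2%) were called. Both copies were called in 204 pairs, which is 51.3% of the called A copies and 50.2% of the called B copies. Of these pairs 103 were higher in both copies, 100 lower in both, and 1 differed in direction. The median gap between the log2 differences of the copies was 0.07 in these pairs. The authors' counting could split or share reads between copies, so the level of a single copy is uncertain. In 194 pairs the A copy alone was called and in 202 the B copy alone, and the fitted difference of the other copy had the same sign in 160 and 169 of them. The subgenomes were alike in share called, with 5.66% higher and 7.58% lower on the A chromosomes and 5.65% and 7.35% on the B chromosomes.

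**Figure D5:**
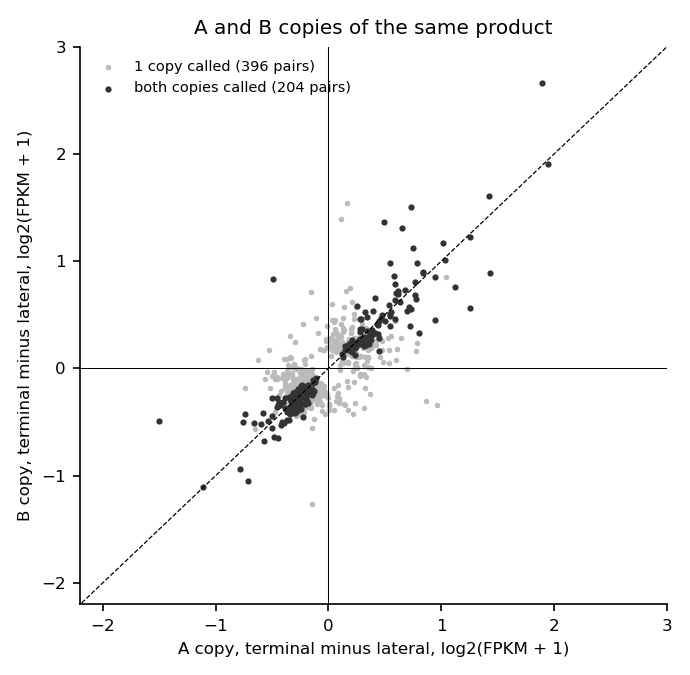
Each point is 1 of 600 name-matched A and B pairs in which at least 1 copy was called, with the terminal minus lateral difference of the A copy on the x axis and of the B copy on the y axis, both on the log2(FPKM + 1) scale. Dark points are the 204 pairs with both copies called, of which all but 1 lie in the quadrants where both copies share a direction.

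Of the 198 genes at least 2-fold higher in terminal leaflets, 52 averaged under 1 FPKM in both the apex and the petiole. The apex mean exceeded both leaflet means for 11.1% of them and the petiole mean did so for 6.06%, against 41.4% and 38.0% of all tested genes. For the 48 genes at least 2-fold lower, the apex mean exceeded both leaflet means for 33.3% and the petiole mean for 35.4%. These shares are descriptions of the same libraries and were not tested.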

How the data were processed

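The series holds 15 Illumina RNA libraries, primed at random, per the labels' protocols, in 5 groups of 3 that its design text calls biological replicates. The labels do not say whether replicates were separate plants, so p-values measure the spread between these samples. That spread was pooled over all 15 libraries, those of the apex, petiole and mutant apex included. Gene levels are FPKM that the authors deposited, per the file headers, for 59878 genes. The tools that aligned and counted the reads were not given in the sources used here. TAIR10, an Arabidopsis build, is named in the submitters' processing notes, whereas gene identifiers in the deposited table name the peanut line Tifrunner. Positions are given as in that table. The log2 ratios and the p-values and q-values of the authors' deposited table were used for side-by-side counts only. Leaflet columns are abbreviated differently from the library titles and were matched by tissue label. No sequences are shown, as no genome of this build was used here.

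The filter kept genes that reached 1 FPKM in 3 or more libraries, and levels were taken as log2(FPKM + 1), with a pseudocount of 1. A linear model with 5 group means was fitted to the 15 libraries in limma 3.58.1 (trend and robust options, R 4.3.3), and the contrast was terminal minus lateral leaflet. Calls required an adjusted p (Benjamini-Hochberg, 39031 genes) under 0.05. On simulated data with the same groups, 89 of 100 genes changed by 1 on the log2 scale and 61 of 100 changed by 0.5 were recovered, with 8 false calls among 38831 unchanged genes. The simulated noise was normal, with the same SD in all 5 groups for each gene. Only genes with a lateral mean above 1 on that scale were changed. These rates are therefore not error rates for the real data, where the spread of a gene can differ between tissues. Some gene models appear more than once with identical values. Such repeated entries make up 73 of the higher and 104 of the lower calls. Depth was estimated from the steps of low FPKM values, of which 42.8% to 44.8% lay within 0.1 read of a whole number (20% for evenly spread values).

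Gene lists are patterns on product names. The genes described and the lists were chosen with earlier results of these data known. The lists of photorespiration, chitinases and proteinase inhibitors, iron storage and sulfur assimilation were added after the values were seen. The rule for named genes took the 15 largest rises and the 15 largest falls among called genes with at least 5 FPKM in the higher group, separate libraries and an informative product, and from each list the gene with the smallest p and the most abundant gene. Alternatives changed the pseudocount, the filter, the scaling, the libraries, the replicate block, the variance estimate and repeated entries. Tables were made with pandas 2.3.3 in Python 3.11.15 and figures with matplotlib 3.10.9.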

Additional observations from a re-analysis of the deposited data

How the results depend on the processing

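Of 140 called genes described, 131 kept their direction and stayed past the threshold under all 18 alternatives, and the other 9 missed the threshold under at least 1 of them. Counts of genes moved by more than 1.5 times in few cases, and the cause was not tested. With a pseudocount of 0.1, 363 genes were at least 2-fold higher and 144 at least 2-fold lower, and with a pseudocount of 0.5, 74 were at least 2-fold lower. With the 5 FPKM filter, which tests fewer genes, 28 were at least 2-fold lower. Same-numbered terminal and lateral libraries had correlations of their deviations of -0.051, -0.029 and -0.035. Those of all other number pairs were higher (-0.0005 to 0.034). Deviations within a group depend on each other through the group mean, so these values cannot decide whether the replicate numbers pair the samples. A fit with the replicate number as a block over the 6 leaflet libraries gave 1282 genes higher and 1191 lower, more higher than lower, and 4 described calls were lost in it (LHY on chromosome 16 arahy.7ZN1JI, MUTE-like, the activase gene arahy.S3V5ZL and CYP86A8-like). The block over all 15 libraries moved no such count by more than 1.5 times. With the 6 leaflet libraries alone and no block, 1841 genes were higher and 2103 lower, against 2197 and 2909 in the main fit. Leaving out 1 library at a time gave 1763 to 1847 genes higher, 2075 to 2296 lower, 195 to 207 at least 2-fold higher and 43 to 54 at least 2-fold lower. The share of calls that were higher was 43.0%, against 49.8% under quantile normalization and 37.6% after rescaling to TPM. The median difference of all genes was -0.035, against -0.013 and -0.051. Keeping repeated entries once, an alternative chosen after seeing the data, moved no count of genes by more than 1.5 times. Of 104 list counts under each alternative, 1646 stayed within 1.5 times and 226 did not, mainly counts of 5 or fewer. Values printed to 2 decimals limit what can be said of genes near 0 FPKM.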

Other observations

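The UVR8 family, named for the ultraviolet-B receptor of Arabidopsis, held 4 genes higher and 2 lower among 24 tested, with a median of -0.05, and the 4 higher ones differed by at least 1 on the log2 scale. MYB111 and MYB12 genes gave 3 higher of 7 tested and flavonol synthases 1 higher of 4. These families were chosen after the values of their members were seen. UVR8-like on chromosome 3 (arahy.CLQJ9M) had 12.3, 13.4 and 11.3 FPKM in the terminal libraries and 1.02, 1.43 and 1.43 FPKM in the lateral libraries (log2 difference 2.54 ± 0.10 SE, adjusted p = 5.2e-10). UVR8 on chromosome 13 (arahy.2H5V0G) differed by 2.39 (adjusted p = 4.6e-11), and the pair on chromosomes 4 (arahy.7X608M) and 14 (arahy.VY93JW) by 1.09 (adjusted p = 3.1e-06) and 1.04 (adjusted p = 6.4e-06). MYB111, which activates flavonol synthesis in Arabidopsis, had 16.6, 16 and 17.6 FPKM against 3.55, 2.89 and 3.32 FPKM on chromosome 11 (arahy.3V4BES; log2 difference 2.06 ± 0.08 SE, adjusted p = 5.2e-10), and MYB111-like averaged 24.9 ± 1.17 against 5.76 ± 0.295 FPKM on chromosome 1 (arahy.B91AID; log2 difference 1.94 ± 0.10 SE, adjusted p = 4.5e-09). These 2 MYB111 genes were under 1 FPKM on average in the apex and petiole. Flavonol synthase on chromosome 17 (arahy.4Y1607) averaged 12.5 ± 0.377 against 7.07 ± 0.775 FPKM (log2 difference 0.75 ± 0.08 SE, adjusted p = 1.1e-05). These genes had no overlap between leaflet groups, while the flavonoid list as a whole gave 15 higher and 14 lower of 91, the latter 6 without terminal library 2, 8 without lateral library 1 and 9 without lateral library 3.

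Transcription factor genes were called lower more often than higher, with 97 higher (4.75%) and 203 lower (9.94%) of 2043 tested, beside 5.63% and 7.45% of all genes. Families with at least 10 tested genes differed in direction. The CONSTANS-like family gave 9 higher and 3 lower of 18, and the TIFY family, which holds the jasmonate repressors, 13 lower of 22. Heat shock genes gave 30 higher and 8 lower of 115, the latter 3 without terminal library 2, 4 without terminal library 3 and 5 without lateral library 3. Heat stress transcription factor A-2-like on chromosome 6 (arahy.5FT298) averaged 11.6 ± 1.22 against 4.66 ± 0.548 FPKM (log2 difference 1.16 ± 0.18 SE, adjusted p = 6.8e-04). BURP domain protein RD22, a drought-induced protein in Arabidopsis, was among the most abundant 2-fold higher genes, at 407 ± 3.47 against 182 ± 1.09 FPKM on chromosome 16 (arahy.IP9R22; log2 difference 1.16 ± 0.20 SE, adjusted p = 0.0015). Its call was lost with a pseudocount of 0.1, where the log2 difference was 1.16 (adjusted p = 0.38).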
